A study of Rattus norvegicus with 12 samples.

Results

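The melanosome and pigment cell genes are 7 genes named by symbol: Tyrp1, Mlana, Tyr, Dct, Pmel, Mitf and Gpnmb. They were followed across cultures described as Müller cells, the main glia of the retina, to read how much pigment cell RNA each culture held. Of the 7, 5 had a row among the 17315 genes of the count files, and Dct and Pmel were not analysed here. Tyrp1, Mlana, Mitf and Gpnmb had enough counts to be tested. Tyr did not.

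RNA was measured by sequencing of polyadenylated transcripts in 12 libraries of Sprague-Dawley rat cells grown in MEM with 25 mM glucose and 2 mM glutamine. SIRMu-1 (5 libraries) is a line that arose without an introduced gene from Müller cell cultures of pups at postnatal day 2 to 4. It was sampled at passage 6 (replicate 1), passage 11 (replicates 2, 3 and 4) and passage 20 (replicate 5) in 20% serum, and replicates 3 and 5 also had the antibiotic gentamicin (87 mg/L) with the antifungal amphotericin B (2.2 mg/L). The rMC-1 line (3 libraries) came from adult rats by transformation with the SV40 large T antigen. It was sampled at passages 23, 26 and 26 in 10% serum without these drugs. The primary cultures (4 libraries) came from pups at postnatal day 2 to 4 and were sampled at passage 4 (replicates 1 and 2) and passage 3 (replicates 3 and 4) in 20% serum with both drugs. Each line is a single line, sampled as repeated cultures. Line, passage, serum, drugs, and for rMC-1 also donor age, differ together between the groups and cannot be told apart. Nothing in the labels says that libraries of a group came from separate animals, so the p-values rest on the spread among these libraries alone, and that spread may be technical.

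Melanosomes are organelles related to lysosomes in which melanin is made and stored. In the eye they belong to the retinal pigment epithelium, which grows from the neural tube, and to melanocytes of the choroid and iris, which come from the neural crest. Müller glia make none. Mitf encodes the transcription factor that sets up both pigment lineages, and it binds the M-box, a motif found before many pigment genes. Sprague-Dawley rats are albino through a missense change in Tyr, so their pigment cells make the melanosome but no melanin.

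The members differ in role. Tyr, Tyrp1 and Dct encode the related enzymes of melanin synthesis. Pmel encodes the fibril on which melanin is laid down, and Mlana encodes a membrane protein of early melanosomes, known as MART-1, that binds PMEL. Gpnmb encodes a membrane glycoprotein related to PMEL, which is also made by macrophages, osteoblasts and cells under lysosomal stress. Mitf likewise is not confined to pigment cells, since osteoclasts, mast cells and other cells use their own transcripts of it.

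The promoters of the members were searched for the core of the M-box, TCATGTG, on both strands within the 250 bases before the RefSeq start site (assembly GRCr8, while the counts were made on rn6). The motif stood before 5 of the 7 members, Tyrp1, Mlana, Tyr, Gpnmb and Dct, against 3.07% of 33469 rat promoters. It lay from base -68 to -62 before Tyrp1 and from -121 to -115 before Tyr, on the strand of the gene. On the opposite strand it lay from -204 to -198 before Mlana and from -22 to -16 before Gpnmb. The longer form AGTCATGTG, which contains the core, stood before Tyrp1 and Tyr only among the 7 and before 0.251% of all promoters. The related motif TCACGTG, bound by the same protein family at lysosome genes, stood before none of the 7 and before 2.79% of all promoters. A match is a run of letters and not a measured binding site. The 4 promoters below belong to members with a row in the files, and their capitals mark the core motif, written CACATGA where it lies on the opposite strand.
Tyrp1, chr5:100326875-100327124, plus strand: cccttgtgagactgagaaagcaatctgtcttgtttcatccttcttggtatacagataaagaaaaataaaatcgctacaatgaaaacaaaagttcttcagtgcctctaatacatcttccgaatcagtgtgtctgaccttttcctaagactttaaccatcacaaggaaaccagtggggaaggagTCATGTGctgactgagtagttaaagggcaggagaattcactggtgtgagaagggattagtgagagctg
Mlana, chr1:236882825-236883074, plus strand: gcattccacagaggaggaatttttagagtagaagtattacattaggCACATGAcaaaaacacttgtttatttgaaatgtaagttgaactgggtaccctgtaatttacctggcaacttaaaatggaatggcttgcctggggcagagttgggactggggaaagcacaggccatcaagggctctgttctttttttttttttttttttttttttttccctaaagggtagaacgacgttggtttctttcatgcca
Tyr, chr1:150622858-150623107, minus strand: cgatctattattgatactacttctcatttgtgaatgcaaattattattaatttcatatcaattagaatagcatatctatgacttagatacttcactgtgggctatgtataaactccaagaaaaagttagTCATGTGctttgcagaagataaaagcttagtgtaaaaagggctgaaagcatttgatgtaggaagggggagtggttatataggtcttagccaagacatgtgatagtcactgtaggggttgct
Gpnmb, chr4:79340878-79341127, plus strand: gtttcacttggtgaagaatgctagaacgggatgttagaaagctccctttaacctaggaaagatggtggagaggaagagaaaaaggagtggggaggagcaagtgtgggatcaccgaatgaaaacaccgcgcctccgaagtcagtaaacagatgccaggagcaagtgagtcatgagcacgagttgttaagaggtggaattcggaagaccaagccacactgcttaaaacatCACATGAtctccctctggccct

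Between 26349346 and 36730443 reads lay in genes in SIRMu-1 libraries, between 27351014 and 38125630 in those of rMC-1 and between 22582345 and 29812705 in the primary ones. Levels are given as raw counts or as CPM, counts brought to a common library size with TMM factors, and no level is compared between genes because gene lengths were not used. Tests are edgeR's quasi-likelihood test with Benjamini-Hochberg adjustment over 11321 genes, and an adjusted p under 0.05 counts as a call. Of 16 Müller glia markers, the channel genes Aqp4 and Kcnj10 were not tested. They had only 2 and 13 counts over the 4 primary libraries. Rlbp1 had 1, 0, 3 and 2 counts there, a mean of 0.065 CPM, and was tested only because of its counts in rMC-1. Sox2 averaged 2.49 CPM in primary cultures, Lhx2 3.77, Car2 7.65 and Pax6 10.6. Each of them was highest in primary replicate 4, at 8.15, 7.40, 17.9 and 24.5 CPM in that order. Each was lowest in replicate 3, at 0.224, 1.65, 2.15 and 1.39 CPM. Car2 was tested only because of its primary counts. Markers that other cells also make were abundant there, with means of 6207 CPM for Vim, 1224 for Dkk3, 749 for Clu and 547 for Cd44. Apoe averaged 224 CPM, Hes1 148.8, Glul 142.7, Sox9 52.2 and the glial glutamate transporter gene Slc1a3 34.2. Of the 14 tested, 9 fell and none rose in SIRMu-1. There 5 fell with libraries summed that share an unexplained code in the deposited file names. In rMC-1, 8 fell and 4 rose, or 5 fell and 6 rose with library totals as the scale. Beside these, 24.4% of all genes tested were lower in SIRMu-1, and 38.9% were lower and 31.9% higher in rMC-1. With library totals, 3130 of the 11321 genes were lower and 5077 higher in rMC-1. The comparisons of SIRMu-1 and of rMC-1 with primary cultures share the primary libraries.

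Both lines had almost no RNA of Tyrp1 and Mlana, while every primary culture had some of each. Tyrp1 and Mlana fell in both lines, Gpnmb fell in both, and Mitf fell in SIRMu-1 but was near the primary level in rMC-1. Against primary cultures, 4 of the 4 tested members were called lower in SIRMu-1, where 24.4% of all tested genes were. In rMC-1 3 of the 4 were called lower, where 38.9% of all tested genes were. No member was called higher in either line, against 21.7% of tested genes in SIRMu-1 and 31.9% in rMC-1. Tyrp1 and Mlana were tested only because of their counts in primary cultures, so a difference was built into their selection and the counts of members called carry no weight of their own. In bulk RNA, fewer cells of a type and less RNA per cell cannot be told apart.

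Tyrp1, the enzyme gene with the most reads, had counts of 1, 0, 0, 0 and 0 in SIRMu-1 replicates 1 to 5 and 0, 1 and 0 in rMC-1, against 184, 185, 97 and 178 in primary cultures. The groups did not overlap, and the 4 primary cultures were close to each other. In CPM the primary libraries stood at 7.26, 6.92, 4.34 and 7.85, a mean of 6.59 ± 1.55 (SD, n = 4). The ratio of primary cultures to SIRMu-1 was 936 (95% exact counting interval 167 to 37030) and the ratio to rMC-1 was 806 (144 to 31900). Such wide intervals come from the single count in each line. Tyrp1 was called lower in SIRMu-1 (edgeR adjusted p = 2.47e-06) and in rMC-1 (1.30e-06).

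Mlana had counts of 1, 0, 0, 0 and 0 in SIRMu-1 and 0 in all 3 rMC-1 libraries, against 114, 394, 17 and 5 in primary cultures. Its one count in SIRMu-1 was in replicate 1, at passage 6, the same library as the count of Tyrp1. The lines lay below every primary culture, but the primary cultures differed widely among themselves. Their levels were 4.50, 14.7, 0.760 and 0.220 CPM (mean 5.06 ± 6.73, SD, n = 4), and the highest was 66.9 times the lowest. The ratio of primary cultures to SIRMu-1 was 770 (95% exact counting interval 138 to 30490), and Mlana was at least 221-fold lower in rMC-1, taking a floor of 3 counts over the group. Mlana was called lower in SIRMu-1 (edgeR adjusted p = 0.00121) and in rMC-1 (0.00130). Without SIRMu-1 replicate 1 neither Tyrp1 nor Mlana had a count in that line, and without rMC-1 replicate 2 Tyrp1 had none in rMC-1. Mlana fell below the expression filter, and could not be tested, without primary replicate 1, 2 or 3.

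Tyr, the rate-limiting enzyme of melanin synthesis, had no count in any library of either line, against 4, 0, 0 and 2 counts in primary cultures. At a floor of 3 counts over the group it was at least 2.91-fold lower in SIRMu-1 and at least 2.504-fold lower in rMC-1. So few reads set no order among the primary cultures. The summed level of Tyrp1, Mlana and Tyr was 0.0142 ± 0.0318 CPM in SIRMu-1 (SD, n = 5), 0.00687 ± 0.0119 CPM in rMC-1 (SD, n = 3) and 11.7 ± 7.20 CPM in primary cultures (SD, n = 4).

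Tyrp1 and Mlana did not keep a fixed proportion in the primary cultures. Mlana made up 38.3% of the reads of both genes in replicate 1 (95% Clopper-Pearson interval 32.7 to 44.0%) and 68.1% in replicate 2 (64.1 to 71.8%). It made up 14.9% in replicate 3 (8.93 to 22.8%) and 2.73% in replicate 4 (0.893 to 6.26%). None of these 4 intervals overlapped another. The libraries at passage 4 had the higher shares and those at passage 3 the lower ones. Replicates 1 and 2 also share a code in the names of the deposited files that the labels do not explain, so passage and code cannot be told apart. Intervals and floors here cover counting error only, since the reads carried no molecular identifiers.

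Mitf had 4.80, 4.09, 4.00, 2.70 and 4.38 CPM in SIRMu-1 and 12.1, 13.7 and 13.1 CPM in rMC-1, against 13.3, 19.5, 13.2 and 10.9 CPM in primary cultures. All 5 SIRMu-1 libraries lay below all others, and rMC-1 lay within the range of the primary cultures. Mitf fell by 1.83 ± 0.20 on the log2 scale in SIRMu-1 relative to primary cultures (SE; edgeR adjusted p = 4.80e-05). It fell by 1.70 ± 0.21 in SIRMu-1 relative to rMC-1 (edgeR adjusted p = 3.47e-05), where it was the only member of the 4 called lower, against 30.5% of tested genes. The difference of rMC-1 from primary cultures was -0.13 ± 0.23 (edgeR adjusted p = 0.612), and turned to 0.35 when libraries were scaled by their totals alone. It was also above 0 without primary replicate 2 (0.05) and with libraries of the same file code summed (0.05), and was past the threshold under none of the settings tried. The mean level was 4.00 ± 0.789 CPM in SIRMu-1 (SD, n = 5), 13.0 ± 0.825 CPM in rMC-1 (SD, n = 3) and 14.2 ± 3.66 CPM in primary cultures (SD, n = 4). SIRMu-1 lay below both other groups beyond their spread, while rMC-1 and primary cultures overlapped. Thus rMC-1 held Mitf transcript near the primary level together with 1 count of Tyrp1 and none of Mlana or Tyr.

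Gpnmb had 17.8, 9.63, 37.7, 20.3 and 78.8 CPM in SIRMu-1 and 12.7, 15.2 and 17.3 CPM in rMC-1, against 410, 301, 457 and 442 CPM in primary cultures. The primary cultures were far above both lines and close to each other, while SIRMu-1 spread over an 8.19-fold range. Gpnmb fell by 3.62 ± 0.50 on the log2 scale in SIRMu-1 (edgeR adjusted p = 0.000190) and by 4.74 ± 0.66 in rMC-1 (5.66e-05), both relative to primary cultures. Without SIRMu-1 replicate 5, the library with the most Gpnmb, the change in SIRMu-1 was -4.26. Between SIRMu-1 and rMC-1 the groups overlapped and the difference was 1.12 ± 0.54 (edgeR adjusted p = 0.0881). It was 0.42 without SIRMu-1 replicate 5, and 1.36 without SIRMu-1 replicate 2, which passed the threshold (edgeR adjusted p = 0.0221). No member was called higher in SIRMu-1 than in rMC-1, against 32.7% of tested genes.

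**Figure D1:**
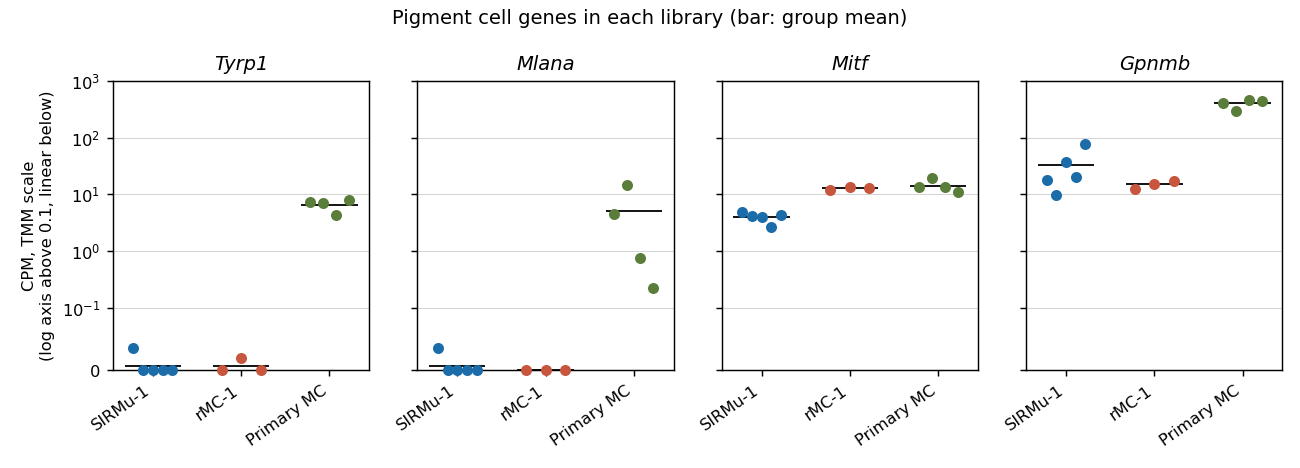
Level of the 4 tested members in each library, in CPM on the TMM scale (log axis above 0.1, linear below), with 1 point per library and a bar at the group mean. Tyrp1 and Mlana lie at or near 0 in all SIRMu-1 and rMC-1 libraries, Mitf is lowest in SIRMu-1, and Gpnmb stands at 301 to 457 CPM in the primary cultures, above every library of the lines.

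The authors' deposited table of log2 CPM holds 3 of the members. In the authors' deposited table Tyrp1 ranged from -6.91 to -4.51 in SIRMu-1, from -6.91 to -5.12 in rMC-1 and from 2.13 to 3.00 in primary cultures. For Mitf, the authors' deposited table gave 1.43 to 2.27 in SIRMu-1, 3.58 to 3.76 in rMC-1 and 3.48 to 4.30 in primary cultures. For Gpnmb, the authors' deposited table gave 3.27 to 6.30 in SIRMu-1, 3.65 to 4.09 in rMC-1 and 8.25 to 8.85 in primary cultures. Groups overlapped there for the same pairs as above.

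Within SIRMu-1 the cultures with gentamicin and amphotericin B had the most Gpnmb, at 37.7 CPM (passage 11) and 78.8 CPM (passage 20). Those without stood at 17.8 CPM (passage 6), 9.63 CPM and 20.3 CPM (both passage 11). Their means were 58.2 CPM with the drugs (n = 2) and 15.9 CPM without (n = 3), a log2 difference of 1.87 ± 0.35. It did not pass adjustment over the genes (edgeR adjusted p = 0.986), and 0% of 11636 genes tested were called in either direction. With each SIRMu-1 library left out in turn the difference was 1.23 to 2.31 and edgeR adjusted p was 0.0602 to 1. Against rMC-1, which was grown without the drugs, SIRMu-1 with the drugs had 1.95 more on the log2 scale (edgeR adjusted p = 0.00115) and SIRMu-1 without them differed by -0.0017 (edgeR adjusted p = 1). Against primary cultures, which all had the drugs, the change was -2.78 for SIRMu-1 with the drugs and -4.68 for SIRMu-1 without them. Mitf did not follow this split, with 4.19 CPM with and 3.86 CPM without the drugs (log2 difference 0.12 ± 0.29). The drug split of the members was looked at after their values were seen.

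**Figure D2:**
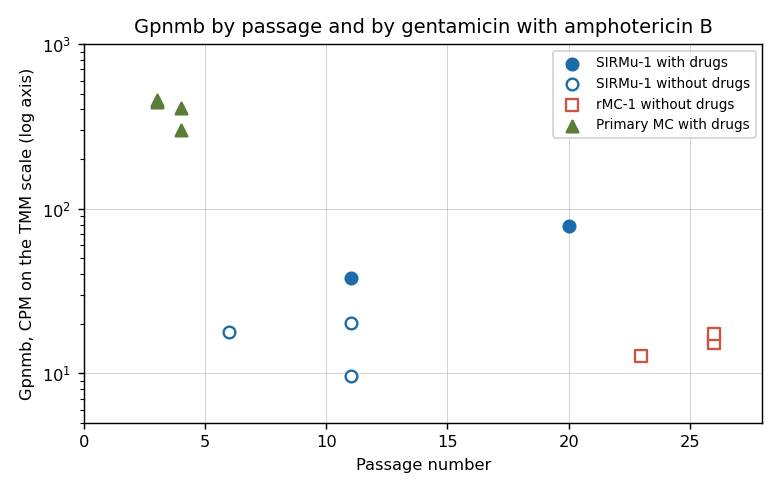
Gpnmb in CPM on the TMM scale (log axis) against passage number, with 1 point per library. SIRMu-1 libraries with the drugs (filled circles, 37.7 and 78.8 CPM) lie above those without (open circles, 9.63 to 20.3 CPM), and all lie below the primary cultures (triangles, 301 to 457 CPM), while rMC-1 (squares) stays at 12.7 to 17.3 CPM at passages 23 and 26.

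The other genes of the lineage were read next, from lists drawn up with earlier results of these data known. Of 11 melanocyte lineage genes, 9 had a row and 7 were tested. In SIRMu-1, 4 fell, none rose and 3 did not pass, relative to primary cultures. In rMC-1, 4 fell, 2 rose and 1 did not pass. Over all genes tested, 24.4% were lower in SIRMu-1, and 38.9% were lower and 31.9% higher in rMC-1. The risen genes were Tfap2a and Erbb3, and only Tfap2a without any 1 of primary replicates 1 and 2, rMC-1 replicates 2 and 3 and SIRMu-1 replicates 1, 3 and 4. The median log2 change of the 7 was -1.53 in SIRMu-1 and -3.21 in rMC-1, beside -0.02 and -0.15 over all genes tested in each. Ednrb and Trpm1 passed the expression filter only with their primary libraries, so a fall was built into these medians and counts. The other log2 changes in rMC-1 were -11.06 (Tfap2b), -3.21 (Snai2), 0.21 (Kit), 1.32 (Tfap2a) and 2.06 (Erbb3).

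Kit, the receptor that melanoblasts need for survival and migration, had no count in SIRMu-1 and 44, 83 and 23 counts in rMC-1, against 35, 19, 4 and 42 in primary cultures. It was at least 48.5-fold lower in SIRMu-1 (edgeR adjusted p = 0.00101), while rMC-1 and primary cultures overlapped (0.21 ± 0.72, edgeR adjusted p = 0.807). Ednrb, the endothelin receptor of the same cells, had 22 counts over SIRMu-1 and none in rMC-1, against 124, 180, 479 and 37 in primary cultures. Its log2 change in SIRMu-1 was -5.79 ± 1.01, which became -4.82 when primary replicate 3 was left out and -6.78 when SIRMu-1 replicate 2 was, and it was at least 342-fold lower in rMC-1 (edgeR adjusted p = 0.00132 and 0.000410). Ednrb and Trpm1, and Rab38, Myrip and Pomc on the other lists, passed the expression filter only with their primary libraries, so that a difference was built into these tests as it was for Tyrp1 and Mlana.

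Trpm1, a channel gene transcribed in melanocytes and in retinal bipolar cells, had 2, 7, 0, 1 and 3 counts in SIRMu-1 and 3, 0 and 3 in rMC-1, against 119, 48, 18 and 105 in primary cultures. Its log2 change was -4.99 ± 0.83 in SIRMu-1 (-5.67 without SIRMu-1 replicate 2) and -5.74 ± 1.08 in rMC-1 (-5.03 without rMC-1 replicate 2), with edgeR adjusted p of 0.000606 and 0.000521. Tfap2b, a transcription factor gene of the neural crest and of retinal amacrine cells, split the lines. It averaged 205.5 ± 34.8 CPM in SIRMu-1 and 0.0683 ± 0.101 CPM in rMC-1, against 150.3 ± 35.5 CPM in primary cultures (SD, n = 5, 3 and 4), with a log2 change of -11.06 ± 0.57 in rMC-1 (edgeR adjusted p = 5.03e-08). Leaving out rMC-1 replicate 3 gave -13.12. Its relative Tfap2a rose by 1.32 ± 0.45 in rMC-1 (edgeR adjusted p = 0.0202).

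Crest genes of the lineage did not all divide the primary cultures alike. Sox10, Erbb3 and Tfap2b were higher in the primary cultures with little Mlana, while Tfap2a and Snai2 were higher in those with more. Sox10, the crest factor that activates Mitf in melanocytes, had counts of 0, 0, 1, 0 and 1 in SIRMu-1 and 0 in all rMC-1 libraries, against 0, 0, 73 and 119 in primary replicates 1 to 4. Replicates 1 and 2, where Mlana had 114 and 394 counts, thus had no Sox10, and replicates 3 and 4, where Mlana had 17 and 5, had all of it. Pax3 had no count in either line and 0, 3, 17 and 0 in primary cultures. Tfap2a stood at 60.3, 56.2, 15.5 and 13.8 CPM in primary replicates 1 to 4. Its relative Tfap2b stood at 113.7, 127.2, 187.7 and 172.8 CPM there. For Erbb3 the levels were 0.158, 0.112, 2.10 and 3.09 CPM, and for Ednrb 4.89, 6.74, 21.4 and 1.63 CPM. Snai2, a crest factor gene also active in mesenchyme, stood at 54.7, 40.6, 29.9 and 21.0 CPM there. The 4 crest and Schwann genes Sox10, Erbb3, Ngfr and Cdh19 summed to 0.450 to 0.711 CPM in SIRMu-1 and 4.93 to 7.54 CPM in rMC-1, against 0.671, 0.749, 8.63 and 19.8 CPM in primary replicates 1 to 4. In rMC-1 nearly all of this sum was Erbb3, a neuregulin receptor gene (4.22, 7.11 and 5.72 CPM), with no count of Sox10 and 1 of Cdh19. Other genes of the Schwann cell list differed in this. S100b, at 2.01, 1.76, 4.02 and 21.8 CPM, and Egr2, at 12.7, 18.3, 37.2 and 39.6 CPM, were higher in replicates 3 and 4. The myelin genes Pmp22 and Mbp did not split the primary cultures in this way. They had 50.4, 63.2, 63.8 and 53.0 CPM for Pmp22 and 23.5, 25.3, 13.3 and 34.7 CPM for Mbp in replicates 1 to 4. Gfra3 had 5, 2, 5 and 8 counts there. Of 10 Schwann cell markers, 6 were tested, of which 4 fell in SIRMu-1, and 4 fell and 1 rose in rMC-1. The shares over all genes tested were 24.4% lower in SIRMu-1, and 38.9% lower and 31.9% higher in rMC-1. The gene that rose was Erbb3 (2.06 ± 0.83, edgeR adjusted p = 0.0418), whose call was lost without any 1 of the 7 libraries named for the lineage list (edgeR adjusted p = 0.0504 to 0.0909), with libraries of the same file code summed (0.148) and with only the drug-treated or only the untreated SIRMu-1 libraries (0.0787 and 0.0555). The part of Schwann cell RNA in the members' levels was not tested.

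Defining markers of the retinal pigment epithelium had few counts in every group. Rpe65, Best1, Ttr, Lrat, Rgr and Otx2 summed to 0 to 3 counts in each library of SIRMu-1 and of rMC-1, against 10, 5, 0 and 9 in primary replicates 1 to 4. Of the primary counts, 9, 5, 0 and 9 were Best1 and 1 was Rpe65, the visual cycle isomerase. Otx2 and Rgr had no count in any of the 12 libraries. Of 15 genes listed as markers of the epithelium, 4 were tested. In SIRMu-1, Cldn19 and Krt8 rose and 2 did not pass. In rMC-1, all 4 rose (Rrh, Rlbp1, Cldn19 and Krt8). Of all genes tested, 21.7% were higher in SIRMu-1 and 31.9% in rMC-1. Rrh and Rlbp1 passed the expression filter only with their rMC-1 libraries, and Cldn19 only with libraries of the lines. A difference was thus built into the tests of Rrh, Rlbp1 and Cldn19. With a filter at 1 CPM in 3 libraries none of these could be tested. The call of Cldn19 in SIRMu-1 was lost without any 1 of primary replicates 1 to 3 and SIRMu-1 replicates 3 to 5 (edgeR adjusted p = 0.057 to 0.0892) and with only the drug-treated or only the untreated SIRMu-1 libraries (0.0565 and 0.148). With libraries of the same file code summed, the calls of Cldn19 in SIRMu-1 (0.15) and rMC-1 (0.0589) and of Krt8 in SIRMu-1 (0.102) were lost. Rrh, which encodes peropsin, an opsin of the pigment epithelium, had 27, 39 and 31 counts in rMC-1, against 3, 2, 1 and 1 in primary cultures, and rose by 3.40 ± 0.43 on the log2 scale (2.9e-05 as edgeR adjusted p). The others are not specific to the epithelium, since Krt8 encodes a keratin of simple epithelia, Cldn19 a tight junction protein and Rlbp1 a retinal-binding protein that Müller glia also make. The whole list summed to 9.39 to 22.1 CPM in SIRMu-1 and 49.1 to 86.4 CPM in rMC-1, against 2.99 to 9.48 CPM in primary cultures. Most of it was Krt8, at 8.54 to 21.2 CPM in SIRMu-1 and 46.8 to 84.4 CPM in rMC-1, against 2.21 to 8.15 CPM in primary cultures.

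Microglia and macrophages, which can also make Gpnmb, were read from 12 defining genes, among them Aif1, Cx3cr1, C1qa and P2ry12. These 12 summed to 1 to 5 counts in the SIRMu-1 libraries and to 2 to 6 in those of rMC-1, against 285, 65, 3 and 5 counts in primary replicates 1 to 4. Gpnmb stood at 457 and 442 CPM in primary replicates 3 and 4, where those 12 summed to 3 and 5 counts. It stood at 410 and 301 CPM in replicates 1 and 2. Outside those 12, Csf1r stood at 4.06, 2.13, 2.15 and 4.10 CPM in replicates 1 to 4. Cd68 stood at 4.34, 1.01, 1.48 and 2.20 CPM and Cd14 at 9.98, 17.0, 10.55 and 12.5 CPM. Mrc1 had 146, 108, 3 and 20 counts and Laptm5 97, 32, 1 and 11. Lyz2 had 288, 76, 2 and 0 counts and Fcer1g 59, 17, 7 and 2. The part of macrophage RNA in the Gpnmb level was not tested. C1qa had 39 and 4 counts in primary replicates 1 and 2 and none in any other library. The whole list of 20 summed to 175 to 225 CPM in SIRMu-1 and 10.8 to 13.9 CPM in rMC-1, against 235 to 472 CPM in primary cultures. Tmem119, a marker of microglia that other mesenchymal cells also make, held most of this sum in SIRMu-1 (168 to 216.5 CPM) and in primary cultures (214.8 to 419.5 CPM). Of the 7 listed genes tested, among them Laptm5 and Mrc1, which passed the filter only with their primary libraries, 5 fell in SIRMu-1 and 4 in rMC-1, and none rose, beside 24.4% and 38.9% lower over all genes tested. In SIRMu-1 2 fell without primary replicate 1, 3 without primary replicate 2 and 1 with libraries of the same file code summed, and in rMC-1 2 fell without primary replicate 1.

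**Figure D3:**
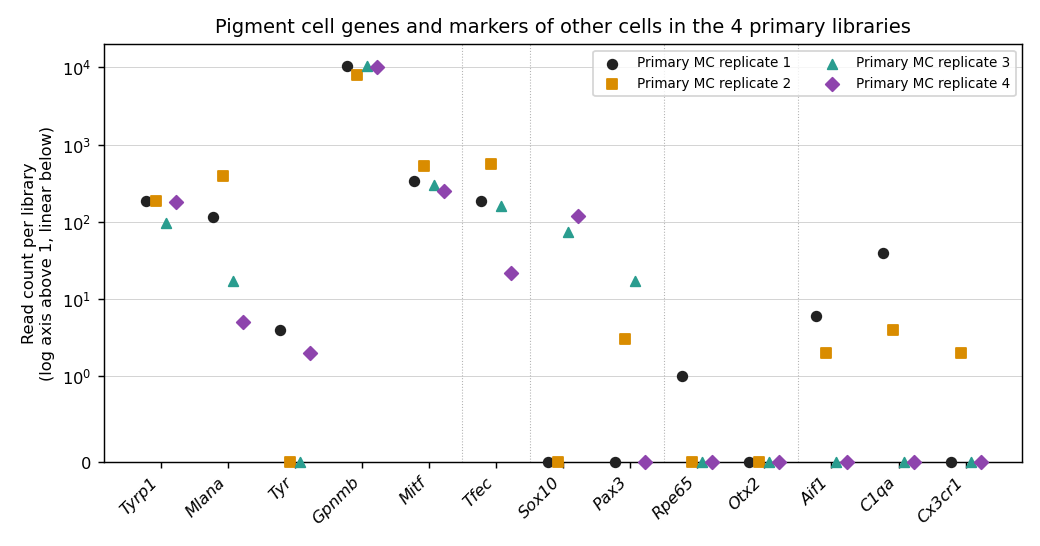
Raw read counts in the 4 primary libraries (log axis above 1, linear below) for members, the related gene Tfec, and crest markers (Sox10, Pax3), pigment epithelium (Rpe65, Otx2) and microglia (Aif1, Cx3cr1, C1qa). Sox10 is high in replicates 3 and 4 where Mlana is low, Rpe65 and Otx2 have 1 count in all, and Gpnmb is level across the 4 libraries.

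Mitf belongs to a family of basic helix-loop-helix factors with Tfeb, Tfe3 and Tfec, which were read with ligands of the pigment lineage. Of the 10 genes on this list, 8 were tested. In SIRMu-1, 4 fell (Tfec, Kitlg, Pomc and Fgf2), and none rose. With libraries of the same file code summed 2 fell in SIRMu-1, and with only its drug-treated libraries 1. In rMC-1, 4 fell (Tfec, Pomc, Hgf and Fgf2), and Tfeb rose. The median log2 change was -1.28 in SIRMu-1 and -1.93 in rMC-1, beside -0.02 and -0.15 over all genes tested. Pomc passed the expression filter only with its primary libraries, so a fall was built into these medians and counts. The other log2 changes in rMC-1 were -9.50 (Tfec), -5.00 (Fgf2), -3.85 (Hgf), -0.01 (Tfe3), 0.02 (Kitlg), 0.39 (Edn1) and 0.91 (Tfeb). In SIRMu-1 they were -3.02 (Kitlg), -2.97 (Tfec), -2.13 (Fgf2), -0.42 (Tfeb), -0.15 (Tfe3), 0.485 (Edn1) and 0.94 (Hgf). Of all genes tested, 21.7% were higher and 24.4% lower in SIRMu-1, and 31.9% higher and 38.9% lower in rMC-1.

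Tfec, the family member transcribed in macrophages and in the pigment epithelium, had 1.42, 1.61, 1.32, 1.25 and 0.150 CPM in SIRMu-1 and 0, 0 and 0.0263 CPM in rMC-1, against 7.26, 20.7, 7.20 and 0.970 CPM in primary cultures. Primary replicate 2 was the highest and replicate 4 the lowest, as for Mlana, and replicate 4 lay within the range of SIRMu-1. The log2 change of Tfec in SIRMu-1 was -2.97 ± 0.76 (edgeR adjusted p = 0.00751), or -2.16 without primary replicate 2. That call was lost with libraries of the same file code summed (0.116) and with only the drug-treated SIRMu-1 libraries (0.0629). The ratio of primary cultures to rMC-1, which had 1 count, was 1151 (95% exact counting interval 206 to 45500).

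Tfe3 had 49.9 to 75.7 CPM in SIRMu-1 and 62.7 to 69.2 CPM in rMC-1, against 61.8 to 72.1 CPM in primary cultures, and passed in neither comparison (edgeR adjusted p = 0.317 and 0.953). It passed as lower in SIRMu-1 without SIRMu-1 replicate 5 (-0.28, edgeR adjusted p = 0.0279) and as higher in rMC-1 with library totals as the scale (0.47, edgeR adjusted p = 0.0197). Tfeb, a regulator of lysosome genes, rose by 0.91 ± 0.21 in rMC-1 (edgeR adjusted p = 0.00198). Kitlg, the ligand of the Kit receptor, averaged 12.8 ± 5.96 CPM in SIRMu-1 and 105.6 ± 10.7 CPM in rMC-1, against 104.3 ± 43.9 CPM in primary cultures (SD, n = 5, 3 and 4). It fell by 3.02 ± 0.42 in SIRMu-1 (edgeR adjusted p = 0.000200), and rMC-1 overlapped the primary cultures. Receptor and ligand were thus both lower in SIRMu-1 and both in the primary range in rMC-1, as Mitf was. Pomc, the precursor of melanocyte-stimulating hormone, had a log2 change of -2.82 in SIRMu-1 (-2.03 without primary replicate 4). That call was lost with libraries of the same file code summed (edgeR adjusted p = 0.0588) and with only the drug-treated SIRMu-1 libraries (0.0523). The ratio of primary cultures to rMC-1 for Pomc was 146 (95% exact counting interval 39.9 to 1212). Fgf2, a melanocyte growth factor, had a log2 change of -5.00 in rMC-1 (-4.32 without primary replicate 4). Edn3 had no count in any library.

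Of 8 melanosome transport genes, which carry the organelle along the cytoskeleton, 5 were tested, of which 4 fell and 1 did not pass in each line, and 3 fell in rMC-1 with library totals as the scale. The median log2 change was -1.44 in SIRMu-1 and -1.84 in rMC-1. Myrip, which passed the expression filter only with its primary libraries, is part of these medians and counts. For Rab27a, Myo7a, Myo5a and Lyst the log2 changes were -1.44, -2.18, -0.71 and -0.64 in SIRMu-1. In rMC-1 they were -5.70, 0.11, -0.70 and -1.84. Of all genes tested, 24.4% were lower in SIRMu-1 and 38.9% in rMC-1. With library totals, 3130 of the 11321 genes were lower in rMC-1. Rab27a, the small GTPase that tethers mature melanosomes to actin motors, had 14.8 to 19.3 CPM in SIRMu-1 and 0.579 to 1.26 CPM in rMC-1, against 35.8 to 68.2 CPM in primary cultures. Its log2 change was -1.44 ± 0.22 in SIRMu-1 (edgeR adjusted p = 0.000310) and -5.70 ± 0.32 in rMC-1 (9.53e-08).

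Myrip, which links Rab27a to myosin VIIa in the pigment epithelium, had 0.126 to 0.619 CPM in SIRMu-1 and 0 to 0.0824 CPM in rMC-1, against 2.28 to 13.4 CPM in primary cultures. Its log2 change was -4.80 ± 0.65 in SIRMu-1, and -7.31 ± 0.94 in rMC-1 (-7.94 without rMC-1 replicate 2 and -6.71 without rMC-1 replicate 3). Mlph, the adaptor between Rab27a and myosin Va in melanocytes, was not tested. It had no count in either line and 2, 0, 9 and 39 counts in primary cultures, at least 24.2-fold lower in SIRMu-1 and at least 20.9-fold lower in rMC-1. Myo7a fell by 2.18 ± 0.52 in SIRMu-1 and Lyst, a regulator of lysosome size, by 1.84 ± 0.32 in rMC-1.

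Of 20 melanosome sorting genes, which build the adaptor complexes that route cargo to lysosome-related organelles in many cell types, 19 were tested. In SIRMu-1, 2 rose, 5 fell and 12 did not pass. Without primary replicate 3, 4 rose and 4 fell, and with only the drug-treated SIRMu-1 libraries 1 rose and 3 fell. In rMC-1, 6 rose, 6 fell and 7 did not pass, and with library totals as the scale 10 rose and 3 fell. On that scale 5077 of the 11321 genes tested were higher in rMC-1 and 3130 lower. The median log2 change was -0.08 in SIRMu-1 and -0.07 in rMC-1. Of all genes tested, 21.7% were higher and 24.4% lower in SIRMu-1, and 31.9% higher and 38.9% lower in rMC-1. The counts of the sorting list lay near or below these shares. Both lists of changes were led by Rab38, a GTPase needed to bring tyrosinase family proteins to the melanosome. Rab38 had no count in any library of either line, against 88, 253, 167 and 114 in primary cultures. It was at least 301-fold lower in SIRMu-1 and at least 259.6-fold lower in rMC-1 (edgeR adjusted p = 0.000161 and 0.000106). Its close relative Rab32, which is made more widely, averaged 32.7 CPM in SIRMu-1 and 33.4 CPM in rMC-1, against 52.0 CPM in primary cultures, with log2 changes of -0.67 and -0.64 (edgeR adjusted p = 0.00334 and 0.00538). The call of Rab32 was lost in SIRMu-1 with only the drug-treated libraries (0.0624), and in rMC-1 with library totals as the scale (-0.16, edgeR adjusted p = 0.36). Apart from Rab38, the largest changes were in Bloc1s6, a subunit of the BLOC-1 complex (-0.75 in SIRMu-1, lost with libraries of the same file code summed at an edgeR adjusted p of 0.0619, and -1.88 in rMC-1), Hps6 (-0.68 in SIRMu-1) and Dtnbp1 (1.20 in rMC-1).

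**Figure D4:**
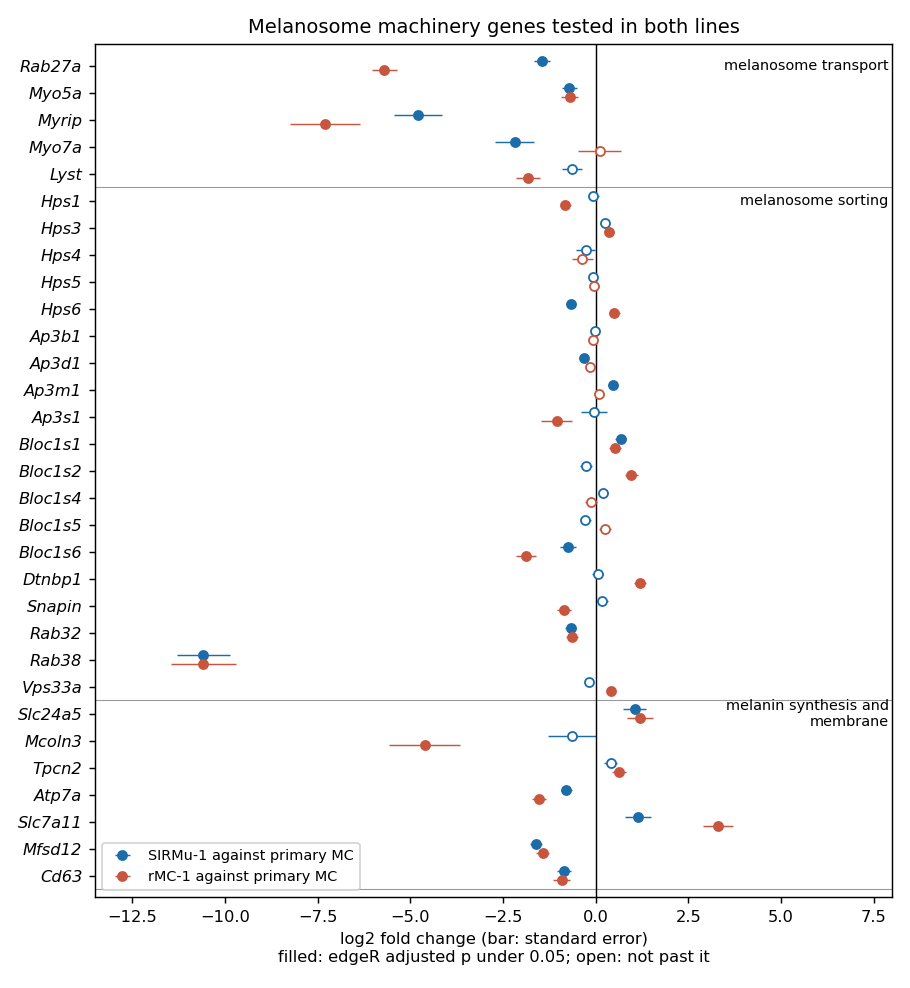
Log2 fold change of each tested melanosome transport, sorting, and melanin synthesis and membrane gene in SIRMu-1 (blue) and rMC-1 (red) relative to primary cultures, with bars for the standard error and filled points for an edgeR adjusted p under 0.05. Most sorting genes lie close to 0 while Rab38 lies near -10.6 in both lines, a fitted value for a gene with no count in either.

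Of 10 other genes of melanin synthesis and of the melanosome membrane, 7 were tested. In SIRMu-1, 2 rose, 3 fell and 2 did not pass. In rMC-1, 3 rose and 4 fell, with 3 falling under library totals. Library totals gave 5077 of the 11321 genes tested as higher in rMC-1 and 3130 as lower. Of all genes tested, 21.7% were higher and 24.4% lower in SIRMu-1, and 31.9% higher and 38.9% lower in rMC-1. The pigment cell genes Slc45a2 and Gpr143 had few counts. Slc45a2 had 3 counts over SIRMu-1 and none in rMC-1, against 5 in primary cultures, and Gpr143 had none in either line, against 6 in primary cultures. Slc7a11, the cystine transporter that also feeds glutathione synthesis, rose by 3.29 ± 0.41 in rMC-1 (edgeR adjusted p = 2.38e-05). In SIRMu-1 it rose by 1.13 ± 0.36 (0.0214), a call lost without primary replicate 1 (1.10, edgeR adjusted p = 0.0526), 2 (1.12, 0.0501) or 3 (0.96, 0.0561) or SIRMu-1 replicate 1 (0.88, 0.0523), with libraries of the same file code summed (edgeR adjusted p = 0.118) and with only the drug-treated SIRMu-1 libraries (0.176). Slc24a5, a cation exchanger gene of pigment cells, had 181 counts over SIRMu-1 and 177 over rMC-1, against 60 over primary cultures. It rose by 1.05 ± 0.31 in SIRMu-1 (edgeR adjusted p = 0.0167) and by 1.19 ± 0.34 in rMC-1 (0.00855), and SIRMu-1 overlapped the primary cultures. Its call in SIRMu-1 was lost with libraries of the same file code summed (0.112) and with only the untreated SIRMu-1 libraries (0.0962). Mfsd12, a cysteine transporter of melanosomes and lysosomes, fell by 1.61 ± 0.16 in SIRMu-1. In rMC-1 the log2 change was -4.61 ± 0.96 for Mcoln3, an endosomal channel (-4.02 without rMC-1 replicate 1), and -1.53 ± 0.18 for Atp7a, a copper pump.

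The genes most alike to each member across the 12 libraries were found by the root mean square difference of log2 CPM, each gene centred on its own mean. For Tyrp1 they were Cpne8 (0.252), RGD1562726 (0.261) and Tmem179 (0.422), where the median over all tested genes was 3.10. Cpne8 averaged 0 CPM in SIRMu-1 and 0 CPM in rMC-1, against 6.43 CPM in primary cultures. For Mlana the closest were Adamts19 (0.470), Lcp2 (0.543) and Rbm24 (0.571), with a median of 2.66. For Gpnmb they were Srrm3 (0.672), Glb1l (0.753) and Phlda2 (0.755), with a median of 2.20. Those of Mitf were Il13ra1 (0.242), Serinc5 (0.257) and Parp9 (0.319), with a median of 1.09. Serinc5 averaged 15.7 CPM in SIRMu-1 and 43.6 CPM in rMC-1, against 53.0 CPM in primary cultures. The genes named for Tyrp1 and Mlana, and Srrm3 and Phlda2, passed the expression filter only with their primary libraries. For Tyrp1 and Mlana much of the likeness was thus built in, by levels near 0 in both lines.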

How the data were processed

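Whole-number read counts for 17315 genes per library were deposited by the authors, not normalized. The submitters' processing notes name build rn6 and the tools STAR 2.5.3a, cutadapt 1.8.1 and edgeR 3.18.1. The sources used here give neither the annotation nor the strand setting. A second deposited table holds log2 CPM values of 10236 genes, normalized by the authors. Reads in no gene, 37.0% to 44.2% of a library, entered neither library sizes nor tests.

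The test was run with edgeR 4.0.16 on R 4.3.3: the expression filter on 3 groups left 11321 genes tested and 5994 not, then TMM factors, quasi-likelihood with 3 group means over 12 libraries (9 residual degrees of freedom) and Benjamini-Hochberg adjustment. Fold changes are ± SE. The test was checked on simulated counts. DESeq2 1.42.0, other scalings and filters, and libraries left out were tried. Members and lists were chosen with earlier results of these data known. All members are named, with up to 3 called genes of largest change per list of the pigment pathway and line, and the 3 genes most alike to each member. A few listed genes are not reported here and were left out of their lists. Of 10 fibroblast markers, 4 fell in SIRMu-1 (2 with only its drug-treated libraries) and 10 in rMC-1. The shares lower over all genes tested were 24.4% in SIRMu-1 and 38.9% in rMC-1. Among these markers Thy1 passed the expression filter only with its primary libraries. Some genes of the cell type lists were named after their values were seen.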

Additional observations from a re-analysis of the deposited data

How the results depend on the processing

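Under all settings in which they could be tested, Tyrp1, Gpnmb and Mitf in SIRMu-1, and Tyrp1, Mlana and Gpnmb in rMC-1, kept their direction and their call relative to primary cultures. The call of Mlana in SIRMu-1 was lost with libraries of the same file code summed (edgeR adjusted p = 0.0585) and with only the drug-treated SIRMu-1 libraries (0.0629), of a range of 5.28e-08 to 0.0629 over its alternatives. Without 1 library in turn, 3 to 4 members were called lower in SIRMu-1, 2 to 3 in rMC-1, and 1 between SIRMu-1 and rMC-1, since Mlana could not be tested without primary replicate 1, 2 or 3 or with a filter at 1 CPM in 3 libraries. The count of members higher in SIRMu-1 than in rMC-1, 0 as reported and 0 to 1 without a library, was 1 (Gpnmb) without SIRMu-1 replicate 2, with only the drug-treated SIRMu-1 libraries and with DESeq2 (Gpnmb adjusted p = 0.0458). Mitf in rMC-1 against primary cultures (-0.24 to 0.0523 without 1 library in turn) turned to 0.35 with library totals, 0.0523 without primary replicate 2 and 0.0519 with file codes summed, and Gpnmb in SIRMu-1 against rMC-1 to -0.0017 with only the untreated SIRMu-1 libraries. Scaling by library totals moved the median log2 change of all genes by 0.47 in rMC-1 against primary cultures, and the share of calls that were higher was 61.9% in place of 45.1%. For SIRMu-1 against rMC-1 the shift was -0.43, and the share was 30.8% in place of 51.7%. Replicate numbers did not pair the samples: same-numbered libraries of different groups had deviation correlations of -0.063 to 0.098 (10 pairs). With the number as a replicate block the members called lower were 4 in SIRMu-1, 3 in rMC-1 and 1 between the lines, Gpnmb in SIRMu-1 changed by -4.34, and among the fold changes put through these settings Slc24a5 (adjusted p = 0.0785) and Cldn19 (0.0533) in SIRMu-1 lost their calls. Among rMC-1 changes that passed no threshold, Kit (-0.1389 to 0.6415 without 1 library in turn) turned without primary replicate 3 or rMC-1 replicate 2, Kitlg (-0.2048 to 0.1978) without primary replicate 1 or 3 and to -0.0022 with a filter at 1 CPM, and Tfe3 (-0.0436 to 0.0915) without any 1 of 5 libraries and to 0.465 with library totals, 0.012 without a filter, 0.0934 with file codes summed and 0.0561 with only the untreated SIRMu-1 libraries. The members' summed levels and fold changes, and those of the list genes whose tests are printed, except Müller, microglia and fibroblast genes, gave 1142 values that kept direction and call under these settings, 40 that lost the call, 4 that gained it and 18 that turned. The drug-treated and the untreated SIRMu-1 libraries alone gave -1.54 and -2.85 for Myo7a and -4.10 and -5.51 for Myrip. At these depths 3 counts correspond on the TMM scale to 0.0212 CPM over SIRMu-1, 0.0247 over rMC-1 and 0.0309 over primary cultures, which limits Tyr, Mlph and Gpr143.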
